A study of Homo sapiens with 7 samples.

Results

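The genes KDM2A, KDM2B, KDM3A, KDM4A, KDM4B, KDM4C, KDM5B and KDM6B encode histone demethylases of the JmjC class, and the positions of 5-hydroxymethylcytosine (5-hmC) along these 8 genes were followed while neuroblastoma cells were kept in low oxygen. A peak, meaning a stretch of genome listed as enriched for 5-hmC, was assigned to a gene when its midpoint fell in a fixed hg19 window set to span the gene with about 20 kb on either side. How much flank each window really holds was not checked against an annotation, and the low edge of the KDM4B window may hold less. The 8 windows add up to 1407 kb. Peaks that overlapped or touched between lists were joined into regions, and 376 of 415416 regions lay in these windows. The cells were SK-N-BE(2), a long-established human neuroblastoma cell line with MYCN amplification, labelled WT. They were kept in 1% oxygen for 6, 12, 24, 48 or 72 h, or at 21% oxygen (0 h), with 1 captured library for each time. An input library at 21% oxygen was not analysed here. Normoxia was sampled at 0 h alone, so oxygen and time in culture cannot be told apart, and with 1 library per time no difference has a replicate check.

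Demethylases of this class remove methyl groups from histone lysines by oxidising them, in a reaction that uses molecular oxygen, iron and 2-oxoglutarate. The TET enzymes, which make 5-hmC from 5-methylcytosine, belong to the same wider family of dioxygenases and have the same requirements. KDM2A and KDM2B bind unmethylated CpG-rich DNA through a zinc finger and act on a histone methyl mark, and KDM2B also brings a Polycomb complex to CpG islands. KDM3A removes a silencing mark and is a well-known target gene of the hypoxia-inducible factors (HIF). KDM4A, KDM4B and KDM4C act on the trimethylated form of the silencing mark of heterochromatin, KDM5B acts on the mark of active promoters, and KDM6B acts on the Polycomb mark. KDM4B, KDM4C, KDM5B and KDM6B have also been described as induced in low oxygen in various cells.

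Promoter sequences of 4 genes are printed because their windows stand at the ends of what follows. The windows of KDM3A, KDM4A and KDM4C had no peak over the first stretch at the low-coordinate end, and KDM4B had the densest window. Each sequence is the 250 bases before a RefSeq start, from the assembly GRCh38.p14, 5′ to 3′, and capitals mark CG pairs. The positions belong to another build than the peak lists, so the sequences cannot be laid on the peaks. KDM3A lies at chr2:86441121-86441370, KDM4A at chr1:43649899-43650148, KDM4B at chr19:4968863-4969112 and KDM4C at chr9:6757723-6757972, all on the plus strand.
KDM3A: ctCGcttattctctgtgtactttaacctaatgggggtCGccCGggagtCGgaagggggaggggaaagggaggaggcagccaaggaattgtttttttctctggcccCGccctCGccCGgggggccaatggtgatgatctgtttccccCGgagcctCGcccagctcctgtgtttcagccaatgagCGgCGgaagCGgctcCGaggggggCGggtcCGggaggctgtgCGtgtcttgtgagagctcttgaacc
KDM4A: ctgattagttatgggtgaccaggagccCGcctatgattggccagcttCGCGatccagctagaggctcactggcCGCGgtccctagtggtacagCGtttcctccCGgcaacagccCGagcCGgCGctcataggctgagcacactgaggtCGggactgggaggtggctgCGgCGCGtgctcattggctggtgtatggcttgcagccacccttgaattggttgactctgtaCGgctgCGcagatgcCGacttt
KDM4B: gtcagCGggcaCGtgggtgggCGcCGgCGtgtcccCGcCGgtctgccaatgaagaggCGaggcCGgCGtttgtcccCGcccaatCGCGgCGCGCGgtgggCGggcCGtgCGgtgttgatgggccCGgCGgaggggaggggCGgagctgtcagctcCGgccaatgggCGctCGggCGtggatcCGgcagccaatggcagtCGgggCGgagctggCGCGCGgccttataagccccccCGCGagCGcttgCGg
KDM4C: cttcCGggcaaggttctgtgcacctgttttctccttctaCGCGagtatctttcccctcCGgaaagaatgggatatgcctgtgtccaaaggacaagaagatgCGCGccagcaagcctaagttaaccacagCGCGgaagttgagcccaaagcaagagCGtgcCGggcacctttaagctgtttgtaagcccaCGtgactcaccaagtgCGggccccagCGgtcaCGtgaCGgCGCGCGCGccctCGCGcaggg

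The RefSeq table lists 4 starts for KDM2B and 2 each for KDM2A, KDM3A and KDM6B, and 1 for each other gene, and the most upstream one was used. All 8 genes were matched by symbol in this table of 35116 promoters, whose median was 11 CG pairs in 250 bases. The KDM4B promoter held 36 CG pairs, the KDM4C promoter 21, the KDM4A promoter 17 and the KDM3A promoter 16. KDM2A had 40, KDM5B 27, KDM6B 21 and KDM2B 13, so at the start used each of the 8 was above the median of the table. At the other starts this did not always hold, since the lowest number over all starts was 9 in KDM2A, 11 in KDM2B and 1 in KDM6B. Both strands were searched for the HIF core motifs ACGTG and GCGTG and for the E-box CACGTG, the motif that MYC family proteins recognise. CACGTG holds ACGTG on both strands, so these motifs overlap. CACGTG was found at 2 places in the KDM4C promoter and at 1 in the KDM4B promoter, against 6.34% of all promoters with at least 1. ACGTG outside a CACGTG was found in none of the 8, and 18.5% of all promoters had ACGTG in any context. GCGTG was found 3 times in KDM2A, 2 times in KDM4B and once each in KDM3A, KDM4A, KDM4C, KDM5B and KDM6B, against 32.2% of all promoters. A match is a description of these letters only.

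The whole lists grew from 0 h onward, which sets the scale for each gene. There were 285292, 292707, 294096, 312126, 336931 and 352484 peaks in the lists of 0, 6, 12, 24, 48 and 72 h. The 8 windows together held 296, 305, 299, 301, 327 and 348 peaks at those times. Their share of the list was 0.0987% at 72 h, against 0.104% at 0 h. The windows thus had more peaks at 72 h but no larger a share of the list. Read depth is unknown and more reads or a better capture could lengthen a list; the part of either in these numbers was not tested. A list gives positions alone, so fewer cells carrying 5-hmC at a site and less 5-hmC per cell cannot be told apart.

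**Figure D1:**
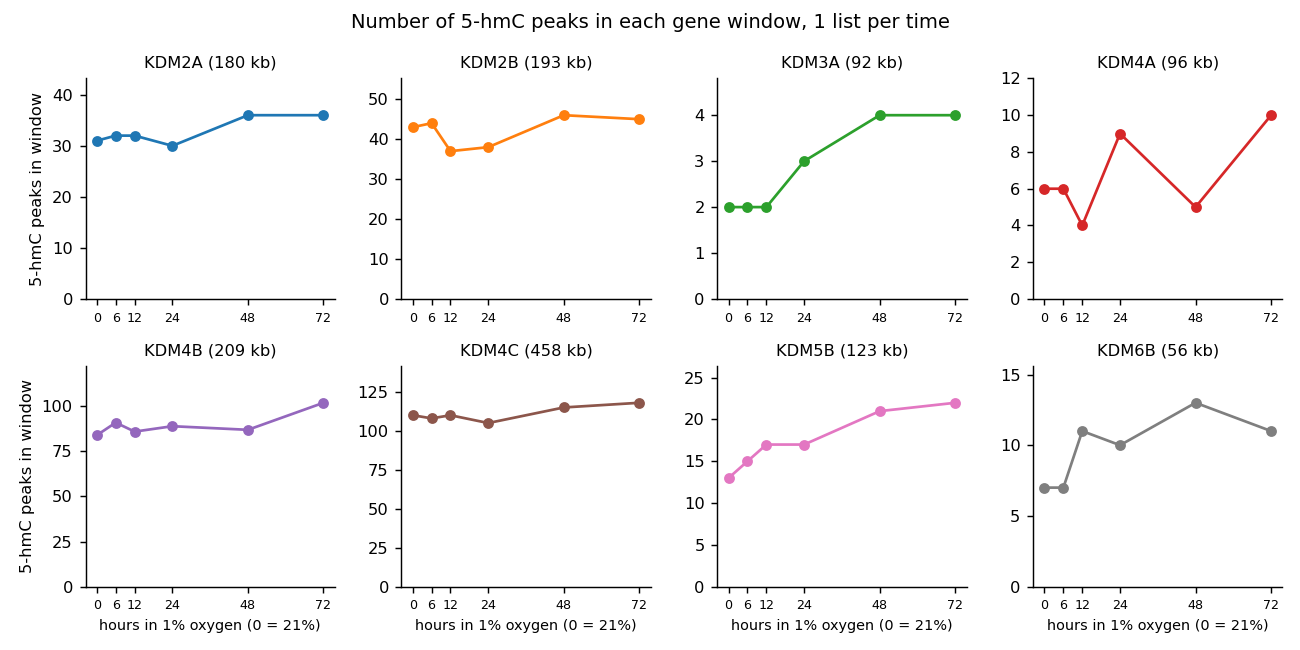
Number of 5-hmC peaks with midpoint in each gene window (vertical axis, from 0, its own scale per gene) against hours in 1% oxygen (horizontal axis, with 0 h at 21% oxygen). Each point is 1 list. KDM5B had 13, 15, 17, 17, 21 and 22 peaks from 0 to 72 h, while KDM4A went up and down between 4 and 10.

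The genes differed far more from one another than any gene differed between times. Over the 6 lists the peaks per 100 kb of window were 40.2 to 48.8 in KDM4B, 22.9 to 25.8 in KDM4C, 19.2 to 23.8 in KDM2B, 16.7 to 20 in KDM2A, 12.5 to 23.2 in KDM6B, 10.6 to 17.9 in KDM5B, 4.17 to 10.4 in KDM4A and 2.17 to 4.35 in KDM3A. That order was the same at 72 h as at 0 h. The ranges over the lists did not overlap between KDM4B and KDM4C or between KDM5B and KDM4A, and overlapped between every other pair of neighbours in the order. For comparison, 16807 tiles of 150 kb across chromosomes 1 to 22 and X had a median of 12.0 peaks per 100 kb at 72 h and of 8.67 at 0 h. KDM4B thus had a density above 99.6% of tiles at 72 h and above 98.2% at 0 h, and KDM3A above 18.9% and 18.1%. The 3 KDM4 genes, close relatives in enzyme activity, included the densest window and the second sparsest.

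Values relative to totals were compared with 0 h as the number of peaks at a time over that at 0 h, divided by the same ratio of the list totals. A value of 1 means that a window kept its share of the list. A gene was called higher when this was at least 25% above 1 and lower when it was at least 20% below 1, by size alone, since 1 library per time allows no test. At 6 h no gene was called in either direction, against 7.45% of tiles with a mean of at least 10 peaks called higher and 6.04% called lower. At 12 h KDM5B and KDM6B were called higher and KDM4A lower, against 7.43% and 5.39% of tiles. At 24 h KDM4A and KDM6B were called higher and no gene lower, against 9.53% and 4.87%. At 48 h KDM3A, KDM5B and KDM6B were called higher and KDM4A lower, against 14.3% and 8.06%. At 72 h KDM3A, KDM4A and KDM5B were called higher and no gene lower, against 17.0% and 9.44%.

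All of these calls, in either direction, were in the 4 windows with the fewest peaks (KDM3A, KDM4A, KDM5B and KDM6B, with at most 22 in any list). KDM3A had 2 peaks at 0 h and so got a ratio at 48 and 72 h only because those lists had more than 3, which means that it could be called higher but not lower. Without it 2 genes were called higher at 48 h and 2 at 72 h. With 6 h as the reference, KDM5B was at 1.21 at 72 h and was not called, while KDM6B was at 1.27 and was. KDM3A, KDM4A and KDM6B had a mean below 10 peaks, and among tiles with a mean from 1 to under 10 peaks, a set added after the values were seen that leaves out those with 3 peaks or fewer in both lists, 56.7% were called higher at 72 h and 5.47% lower. At 48 h those shares were 49.9% and 7.14%, at 24 h 33.8% and 12.5%, at 12 h 22.3% and 20.6%, and at 6 h 28.5% and 21.1%. Here too a tile with 3 peaks or fewer at 0 h entered only if it had more later, which raises the share called higher. With tiles chosen by a mean from 4 to under 10 peaks over all lists and none left out, also added after the values were seen, 52.8% were called higher at 72 h and 5.25% lower. All 4 windows with at least 30 peaks in each list (KDM2A, KDM2B, KDM4B and KDM4C) lay below 1 at 72 h and the other 4 above 1. This split did not hold for peaks of at least 500 bp, where KDM4A had 0.891 and KDM5B 0.729, both below 1, and KDM2A 1.08, KDM2B 1.11 and KDM4C 1.07, all above 1. With 20 kb taken off each end of the windows KDM6B had 0.934, and without regions present in 1 list only KDM2A had 1.1.

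The same rule was applied to covered length, the base pairs under peaks in a window over those of the whole list. No gene was called higher at 6 h, KDM6B was at 12 h, KDM3A and KDM6B at 24 h, KDM3A, KDM5B and KDM6B at 48 h, and KDM3A and KDM6B at 72 h. Of tiles with at least 10 peaks 5.16%, 4.98%, 8.77%, 17.3% and 20.9% were called higher at these times, and of sparser tiles 25.7%, 25.6%, 38.5%, 56.1% and 57.8%. No gene was called lower at any time, against 3.59%, 3.48%, 1.74%, 4.87% and 6.73% of tiles with at least 10 peaks and 21.1%, 21.1%, 12.1%, 8.65% and 9.3% of sparser tiles. KDM6B was thus the gene called most often by covered length, at 4 of 5 times, and KDM3A was called at 3.

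**Figure D2:**
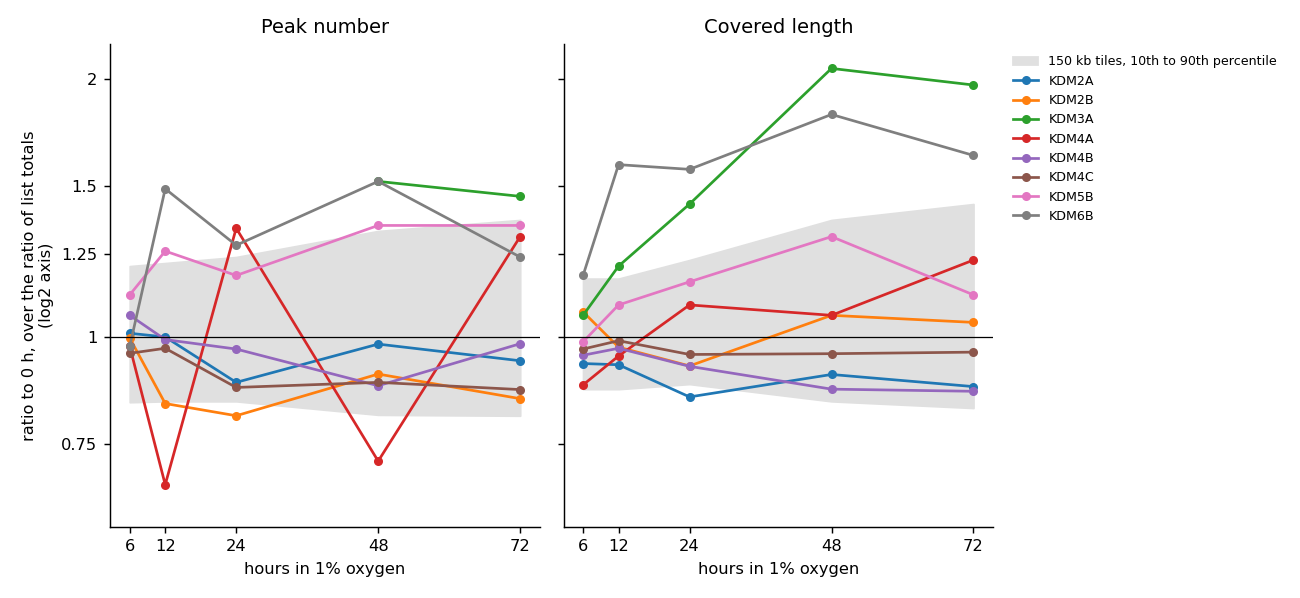
Ratio to 0 h divided by the ratio of list totals (vertical axis, log2 scale) against hours in 1% oxygen, for peak number (left) and covered length (right). Each line is 1 gene, the grey band spans the 10th to 90th percentile of the 11178 tiles of 150 kb with a mean of at least 10 peaks, and no number ratio is drawn where both lists had 3 peaks or fewer. KDM6B and KDM3A lay highest in covered length, at 1.63 and 1.97 at 72 h.

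KDM2A and KDM2B, the CpG-binding members, kept near or below their share of the lists. KDM2A (chromosome 11, 66866001 to 67046000) had 31, 32, 32, 30, 36 and 36 peaks at 0, 6, 12, 24, 48 and 72 h, and KDM2B (chromosome 12, window of 193 kb) had 43, 44, 37, 38, 46 and 45. At 72 h the ratio relative to totals was 0.938 in KDM2A, with a 95% exact binomial interval of 0.565 to 1.57. The ratio of KDM2B was 0.847, with an interval of 0.545 to 1.32. Intervals here and below cover counting error only, and both include 1.

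The high-coordinate end of the KDM2A window was almost filled by 5-hmC. A single 10 kb bin there, 170 to 180 kb from the low edge, had 8.72 kb under peaks at 72 h and 9.31 kb at 0 h. The region chr11:67034745-67041486, which reaches into it, was present in all 6 lists, with a widest peak of 6155, 3435, 4855, 3129, 3909 and 4878 bp from 0 to 72 h. That region was divided into 2, 3, 2, 4, 3 and 2 peaks at these times. In the RefSeq gene order of GRCh38.p14 the next protein-coding gene on that side is GRK2, a kinase of G protein-coupled receptors, and the bin lies in the outer 20 kb of the window. In the other 17 bins of KDM2A covered length was 18.1 kb at 72 h and 14.1 kb at 0 h, higher at 72 h in 13 bins and lower in 4. For these 17 bins the ratio relative to the covered length of the lists was 0.981. Counts of bins here and below are in plain base pairs, while the whole list covered 192 Mb at 72 h and 147 Mb at 0 h. The same counts over all 10 kb bins of the genome were not made.

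KDM2A also had most of the sites that were listed at 0 h alone. Of its 49 regions 6 were present at 0 h and in no hypoxia list, which is 12.2% (95% Clopper-Pearson interval 4.63 to 24.8), against 1.84% of all regions. The other 7 windows together held 2 more, 1 in KDM4A and 1 in KDM4C. The 6 peaks were narrow, with widths of 226, 434, 325, 255, 300 and 231 bp in order along the chromosome, and the widest was at chr11:66967637-66968070. Of peaks of at least 500 bp, none in KDM2A was at 0 h alone, against 1.69% of all regions of such peaks. Sites in a single list were frequent in this window and not confined to 0 h. In all, 16 of the 49 regions were in 1 list only (32.7%, against 17.9% of all regions). Of the 49, 4 were at 72 h alone (8.16%), close to the 7.12% of all regions.

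Among regions with exactly 1 peak in each list, KDM2B held 4 of the 8 whose peak was at least 2 times as wide at 72 h as at 0 h. Its covered length was 18.1, 20.8, 18.5, 18.9, 23.5 and 24.6 kb from 0 to 72 h. At chr12:122027542-122029161, 182 kb into the window, there were 3 peaks at 0 h, the widest of 510 bp, and a single peak of 1620 bp at 72 h, so it is not one of those 4. At chr12:121961958-121962936 the single peak was 324, 640, 727, 645, 875 and 879 bp wide from 0 to 72 h, a width 2.71 times as large at 72 h as at 0 h. At chr12:121953360-121953810, 108 kb into the window, widths of 424, 264, 451, 341, 238 and 242 bp went the other way. Of 23 regions with exactly 1 peak in each list, 17 were wider at 72 h than at 0 h (73.9%, against 71.2% of all such regions). At least 2 times as wide were 4 (17.4%, against 3.31%). The median width of the 23 at 0 h was 324 bp, against 434 bp in all such regions, and the narrowest peak of that list had 226 bp. The part of a narrow start in the widening was not tested.

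KDM3A, the HIF target, had the fewest peaks of the 8 genes. Its 92 kb window on chromosome 2 held 2, 2, 2, 3, 4 and 4 peaks from 0 to 72 h, covering 0.58, 0.66, 0.735, 0.934, 1.46 and 1.5 kb. The covered length was larger at each later time. The 4 sites can be followed one by one. The site at chr2:86724209-86724611, near the high edge, was present in all lists, at 294, 331, 325, 257, 362 and 395 bp. The site at chr2:86680346-86680796 had no peak at 0 h and peaks of 329, 410, 297, 451 and 387 bp from 6 to 72 h. The site at chr2:86670563-86670964 was listed from 24 h onward, at 380, 384 and 379 bp. The last of the 4, chr2:86723070-86723411, was present at 0, 48 and 72 h and in none of the lists between.

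The part of the KDM3A window with the sites absent at 0 h lay at 22.8 and 32.6 kb from the low edge, and the stretch from 32.8 to 75.1 kb had no peak in any list. At 0 h both peaks were in the outer 20 kb at the high end. The ratio relative to totals at 72 h was 1.46 for 4 peaks at 72 h against 2 at 0 h, with an interval of 0.232 to 17.9. For covered length it was 1.97, and that of 48 h was 2.06, both below the 90th percentile of sparser tiles (2.56 at 72 h and 2.46 at 48 h).

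The KDM4 genes ranged in density from the densest window to the second sparsest. KDM4A (96 kb, chromosome 1) held 6, 6, 4, 9, 5 and 10 peaks from 0 to 72 h and did not keep one direction. Part of this came from how peaks were divided, since the region chr1:44183762-44185331 held 2, 1, 1, 2, 1 and 2 peaks. Counted as regions with a peak, the numbers were 5, 5, 4, 7, 5 and 9. The 4 regions in all 6 lists lay between 57.1 and 88.5 kb from the low edge, and the 2 sites nearest the low edge, at 21.8 and 23.8 kb, were absent at 0 h and present at 72 h. Covered length was 3.36, 3.17, 3.36, 4.14, 4.36 and 5.43 kb. The ratio of number at 72 h was 1.31 (interval 0.444 to 4.52).

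KDM4B had the largest part of its window under peaks, and its widest block kept nearly the same width in all lists. Its 209 kb on chromosome 19 held 84, 91, 86, 89, 87 and 102 peaks and had 95.5, 97.3, 97.3, 99.2, 101 and 108 kb under them from 0 to 72 h. That is 51.6% of the window at 72 h and 45.7% at 0 h, against tile medians of 5.51% and 3.6%. At least 34 of its peaks in each list were 1000 bp wide or more. The widest, at chr19:4982908-4989588, was a single peak of 6536, 6375, 6365, 6410, 6571 and 6517 bp from 0 to 72 h. No stretch longer than 6.00 kb was free of peaks in all lists.

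In base pairs, most of the difference between 72 h and 0 h in KDM4B lay in its thinner parts. The 11 bins of 10 kb with a mean cover of at least 50% over all lists had 75.2 kb under peaks at 72 h and 72.4 kb at 0 h. The 10 bins below that mean had 32.8 kb at 72 h and 23.1 kb at 0 h, higher at 72 h in 8 bins and lower in 2. Relative to the covered length of the lists the ratio was 0.794 in the 11 bins and 1.08 in the 10. The first bin at the low edge had 4803 bp under peaks at 72 h and 1681 bp at 0 h, and it holds the site chr19:4967601-4968463, absent at 0 h and 287, 612, 558, 860 and 794 bp wide from 6 to 72 h. Relative to totals KDM4B was at 0.982 for number (interval 0.729 to 1.33) and 0.864 for covered length at 72 h.

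**Figure D3:**
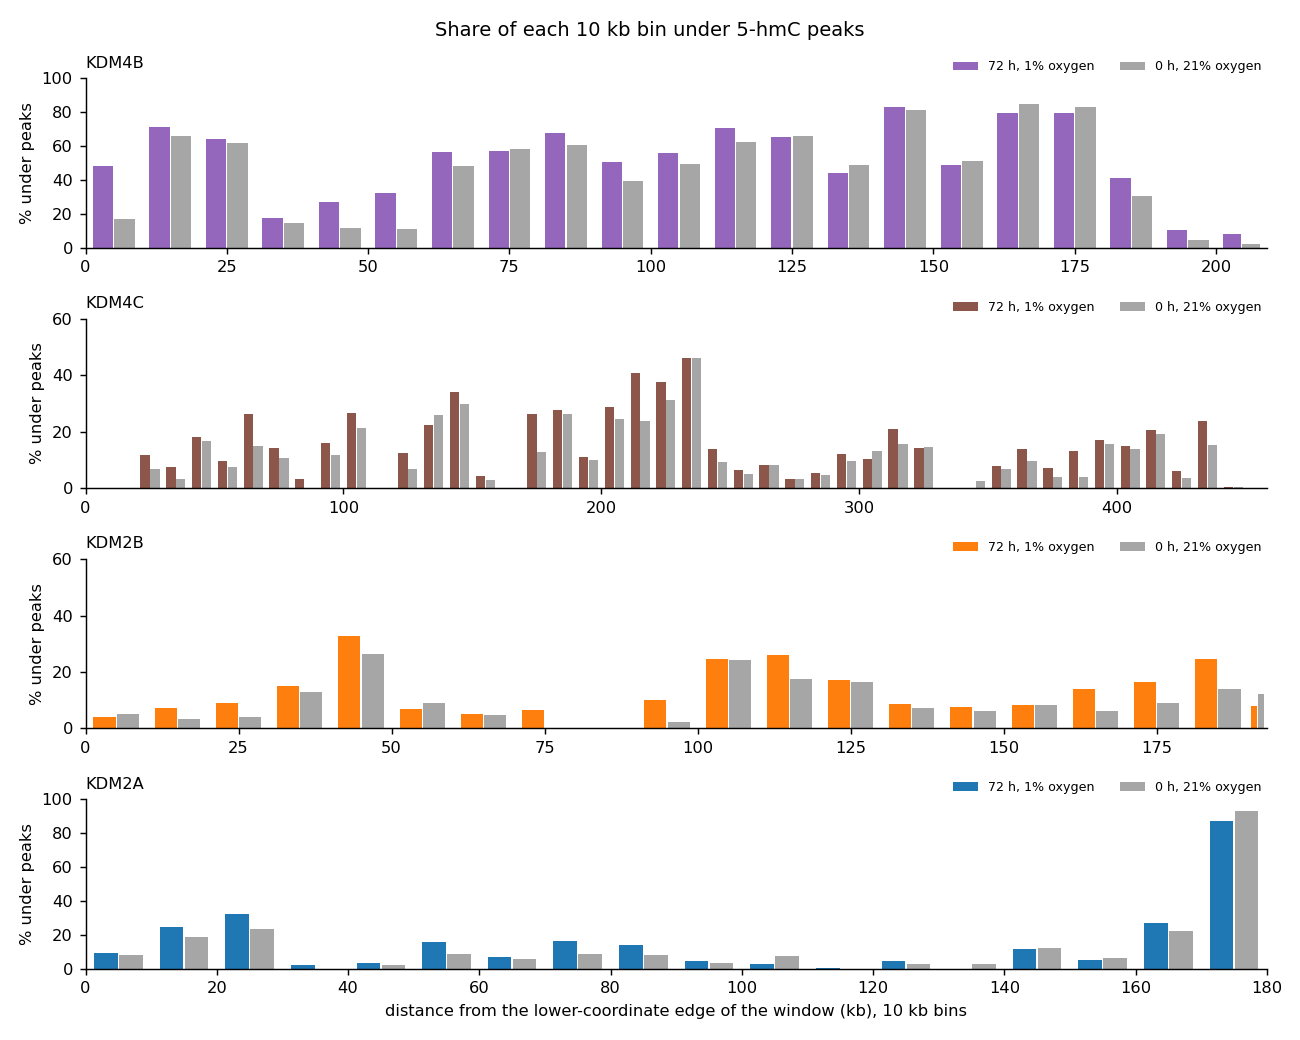
Percent of each 10 kb bin under peaks (vertical axis) against distance from the low-coordinate edge of the window in kb, for the 4 genes with the most peaks, with 72 h in colour left of 0 h in grey (the last bin of a window can be shorter). The 11 densest bins of KDM4B together had 75.2 kb at 72 h and 72.4 kb at 0 h under peaks, and the last bin of KDM2A was almost full at both times.

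KDM4C, the longest window at 458 kb on chromosome 9, held 110, 108, 110, 105, 115 and 118 peaks from 0 to 72 h. Its share of the list was lower at 72 h, with a ratio of 0.868 and an interval of 0.664 to 1.14. Covered length was 51.2, 53.1, 53.3, 55.0, 59.7 and 64.3 kb, so it was larger at each later time while the ratio to totals was 0.96 at 72 h. In plain base pairs, 35 of 46 bins of 10 kb had more covered at 72 h than at 0 h and 5 had less, while 6 bins had no peak in any list. The site chr9:7172111-7172855 had no peak at 0 h and peaks of 286, 434, 715, 665 and 406 bp from 6 to 72 h, and chr9:6801331-6801609 had a peak of 279 bp at 0 h alone.

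Outer stretches at the low-coordinate end without any peak were seen in 3 of the genes printed above. The first 21.7 kb of the KDM4C window, the first 21.7 kb of the KDM4A window and the first 22.6 kb of the KDM3A window had no peak in any of the 6 lists. Where each gene starts within its window was not read, since no annotation in hg19 was used here.

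KDM5B, which acts on the mark of active promoters, had at no time fewer peaks than at the time before. Its 123 kb window on chromosome 1 held 13, 15, 17, 17, 21 and 22 peaks from 0 to 72 h. The ratio relative to totals was 1.35 at 72 h, with an interval of 0.66 to 2.96, and 1.35 at 48 h. All 12 regions with a peak at 0 h also had one at 72 h. Of all peaks in the 0 h list 89.8% overlapped one at 72 h, and in KDM3A too it was 100%. In KDM5B 9 of 25 regions had a peak at 72 h and none at 0 h (36.0%, interval 18.0 to 57.5), against 24.3% of all regions. One of them, chr1:202760585-202761013, was present in all 5 hypoxia lists, at 252, 397, 331, 388 and 429 bp.

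The added sites of KDM5B were narrow. No peak among the 9 regions was wider than 429 bp in any list, and for peaks of at least 500 bp KDM5B had 5 at 72 h and 5 at 0 h, a ratio of 0.729. The block at chr1:202679879-202681877, close to the low edge, held the widest peaks at 1172, 1870, 1159, 1871, 1974 and 1247 bp. That block was divided into 2, 1, 2, 1, 1 and 2 peaks, and the lower widths were those of the lists with 2. Covered length was 6.9, 7.29, 7.9, 8.99, 11.0 and 10.1 kb, and its ratio was 1.12 at 72 h, below the rule, and 1.31 at 48 h.

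KDM6B, which acts on the Polycomb mark, had most of its peaks in the middle of its window. Its 56 kb window on chromosome 17 held 7, 7, 11, 10, 13 and 11 peaks, with 2.85, 3.61, 4.78, 5.03, 6.33 and 6.1 kb under them from 0 to 72 h. At 72 h 7 of the 11 peaks and at 0 h 6 of the 7 lay in the 16 kb between the outer 20 kb stretches. The site chr17:7755255-7756211 had no peak at 0 h and was 673, 685, 711, 704 and 859 bp wide at 6, 12, 24, 48 and 72 h. A nearby site, chr17:7757765-7759119, was present in all lists at 998, 1156, 1115, 1071, 1132 and 1294 bp.

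A second site of the KDM6B window absent at 0 h, chr17:7728995-7729386, was 235, 231, 363, 352 and 386 bp wide from 6 to 72 h. The sites chr17:7756244-7756657 and chr17:7762323-7763009 were listed at 48 and 72 h alone. Of these 3, chr17:7728995-7729386 and chr17:7762323-7763009 lie in the outer 20 kb of the window, at 6.19 and 39.7 kb from the low edge. The covered length relative to totals was 1.18, 1.59, 1.57, 1.82 and 1.63 at 6, 12, 24, 48 and 72 h, and the 90th percentile of sparser tiles was 1.61, 1.63, 1.92, 2.46 and 2.56 at those times. By number the ratio at 72 h was 1.24, just under the rule, with an interval of 0.45 to 3.87. With 20 kb taken off each end it was 0.934.

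**Figure D4:**
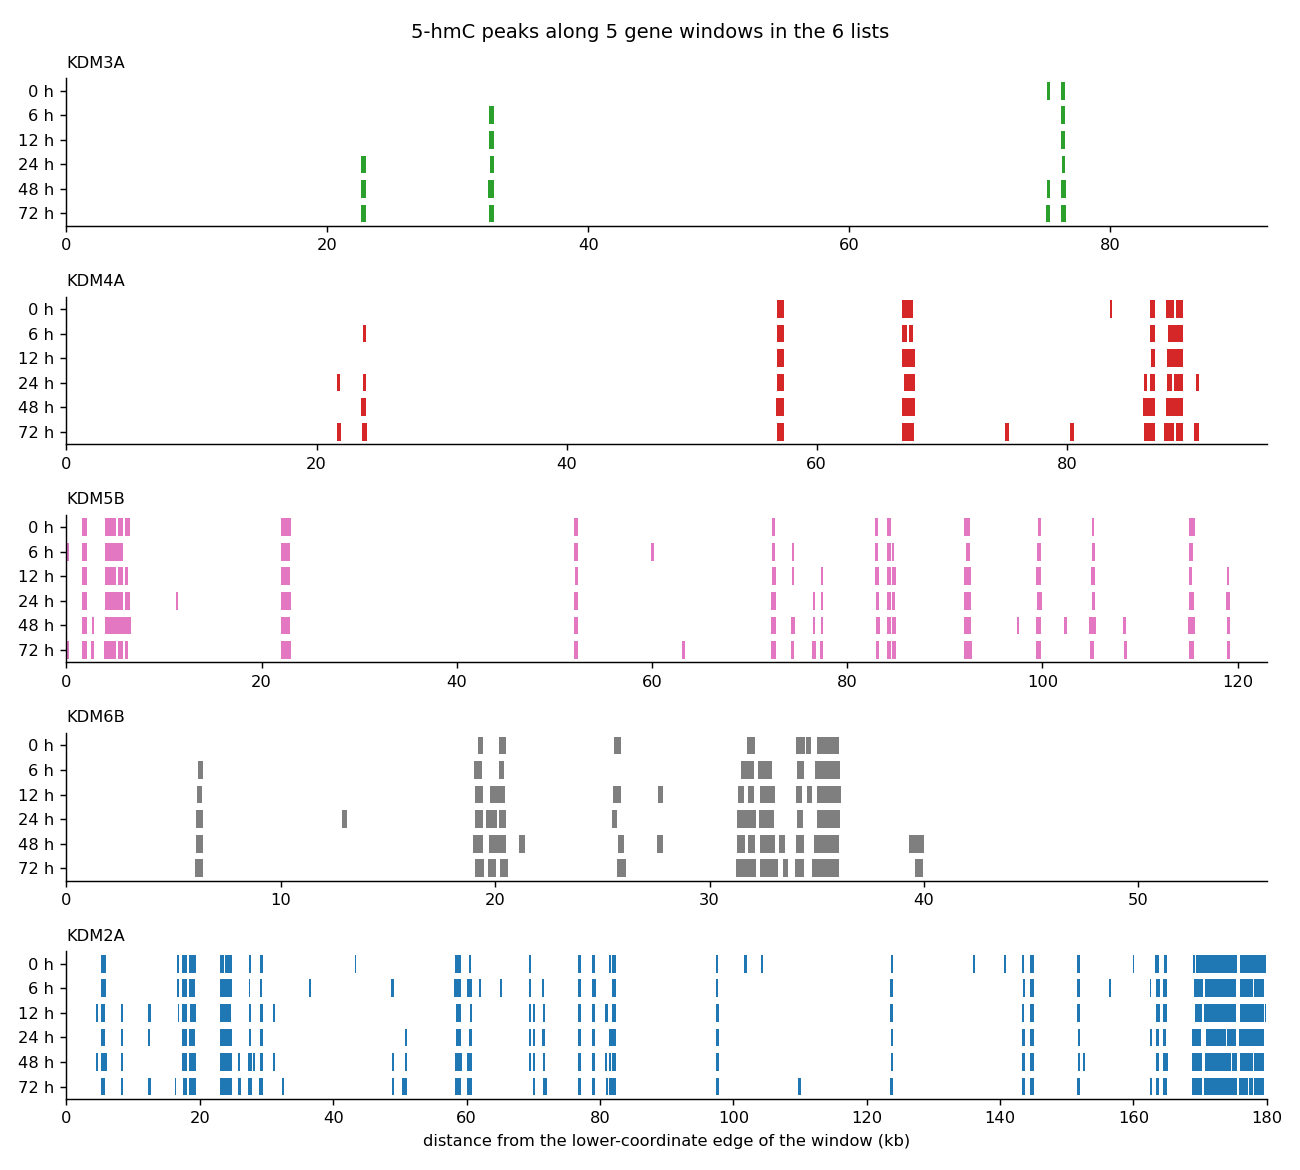
Positions of 5-hmC peaks along the windows of KDM3A, KDM4A, KDM5B, KDM6B and KDM2A (horizontal axis, kb from the low-coordinate edge), 1 row per list from 0 h at the top to 72 h at the bottom. Each bar spans 1 peak to scale. KDM3A shows 2 sites that were absent at 0 h, and KDM2A the full block at its high end.

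The question whether a gene took a growing or shrinking share of the peaks over time was tested over the 6 lists by an exact two-sided permutation test over all 720 orders, with Benjamini-Hochberg adjustment over 11186 windows (11178 tiles and the 8 genes). No gene passed an adjusted p of 0.05, and neither did any tile (0.0%). The smallest p that 6 lists allow for Spearman's rho is 0.00278, so at least 622 of these windows would have to reach it for 1 to pass. Without adjustment by Spearman's rho, 1 gene passed in the rising direction, against 5.98% of tiles, and 1 in the falling direction, against 6.92%. By Pearson's r 2 genes passed rising, against 10.4% of tiles, and 1 falling, against 11.1%. KDM5B had a Spearman rho of 0.943 (exact permutation p = 0.0167, adjusted 0.213) and a Pearson r of 0.851 (exact permutation p = 0.0292, adjusted 0.194), with r at 0.705 without 48 and 72 h. KDM4C had a rho of -0.886 (exact permutation p = 0.0333, adjusted 0.258) and an r of -0.833 (exact permutation p = 0.0347, adjusted 0.205), with r at -0.936 without those times. For peaks of at least 500 bp the direction of KDM4C turned, with a rho of 0.543 and an r of 0.463. KDM5B then had a rho of 0.029 and an r of 0.248. With 20 kb taken off each end of the windows KDM5B had a rho of 0.486 and an r of 0.553. Its rho was 0.886 with peaks merged over 300 bp and 0.899 with equal numbers of peaks per list. KDM3A had an r of 0.907 (exact permutation p = 0.0167, adjusted 0.16) and a rho of 0.714 (exact permutation p = 0.136, adjusted 0.393), with r at 0.846 without those times.

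With covered length as the share, an alternative added after the data were seen, no gene passed the adjusted threshold either (0.0% of tiles), and KDM4B came nearest. Its r was -0.94 (exact permutation p = 0.00278, adjusted 0.0557) and its rho -0.943 (exact permutation p = 0.0167, adjusted 0.124), with r at -0.873 without 48 and 72 h. KDM4B had more base pairs under peaks at 72 h than at 0 h, but the whole list grew by more. KDM3A had an r of 0.942 (exact permutation p = 0.00833, adjusted 0.0681) and a rho of 0.943 (exact permutation p = 0.0167, adjusted 0.124), with r at 0.994 without those times. Without adjustment 19.3% of tiles passed rising and 14.7% falling by Pearson's r, against 2 genes rising and 1 falling.

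The turnover of sites in the 8 windows was close to that of the whole lists. Of the 376 regions 191 were in all 6 lists (50.8%, interval 45.6 to 56.0), against 46.8% of all regions. Those in all 5 hypoxia lists and not at 0 h numbered 8 (2.13%, against 2.99%), those at 0 h alone also 8 (2.13%, against 1.84%), and those at 72 h alone 24 (6.38%, against 7.12%). With the same number of peaks per list, widest first, these 3 numbers were 5, 14 and 11 of 341 regions. The shares of all regions were then 2.12%, 3.21% and 4.19%, so the last 2 moved in the same direction across the genome. KDM4B kept the largest share in all lists, 51 of 81 regions (63.0%), followed by KDM4C with 72 of 135 (53.3%), KDM2B with 27 of 58 (46.6%) and KDM5B with 11 of 25 (44.0%). KDM2A had 20 of 49 (40.8%), KDM4A 4 of 10, KDM6B 5 of 14 and KDM3A 1 of 4.

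Base by base the same order appeared at its ends. Of the 126 kb of KDM4B under a peak in any list, 61.6% were under a peak in all 6, while in KDM3A it was 14.8% of 1.6 kb. KDM6B had 22.6% of 8.38 kb. Peaks that were at 72 h and did not overlap one at 0 h were narrower than those that did in 7 of the 8 genes, with a median of 279 bp against 903 bp in KDM4B and of 303.5 bp against 468 bp in KDM4C. Over all peaks at 72 h the medians were 311 bp and 497 bp, and a wide peak overlaps another more readily. KDM3A was the exception, at 383 bp for 2 such peaks against 365 bp for 2 shared ones.

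The sites present throughout were wider late in the time course, as they were across the genome. In the 134 regions with exactly 1 peak in each list, the median width was 446.5, 481.5, 480.5, 488, 535 and 573.5 bp from 0 to 72 h, and in all 155677 such regions 434, 457, 447, 467, 484 and 502 bp. Of the 134, 93 were wider at 72 h than at 0 h (69.4%, against 71.2% of all such regions), and 8 were at least 2 times as wide (5.97%, against 3.31%). Those 8 were 4 in KDM2B, 2 in KDM2A and 2 in KDM4C. In KDM4B 14 of 23 were wider, with a median ratio of 1.06. Other wide blocks of KDM4B were divided into differing numbers of peaks and are not among the 134. Of these, chr19:4973495-4977775 held 2 peaks at 0 h, the widest of 1676 bp, and a single peak of 4281 bp at 72 h. The region chr19:5101953-5105423 held 2 peaks at 72 h, the widest of 1815 bp, and 2 at 0 h, the widest of 2927 bp. At 6, 24 and 48 h it was a single peak of 3395, 3382 and 3442 bp.

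**Figure D5:**
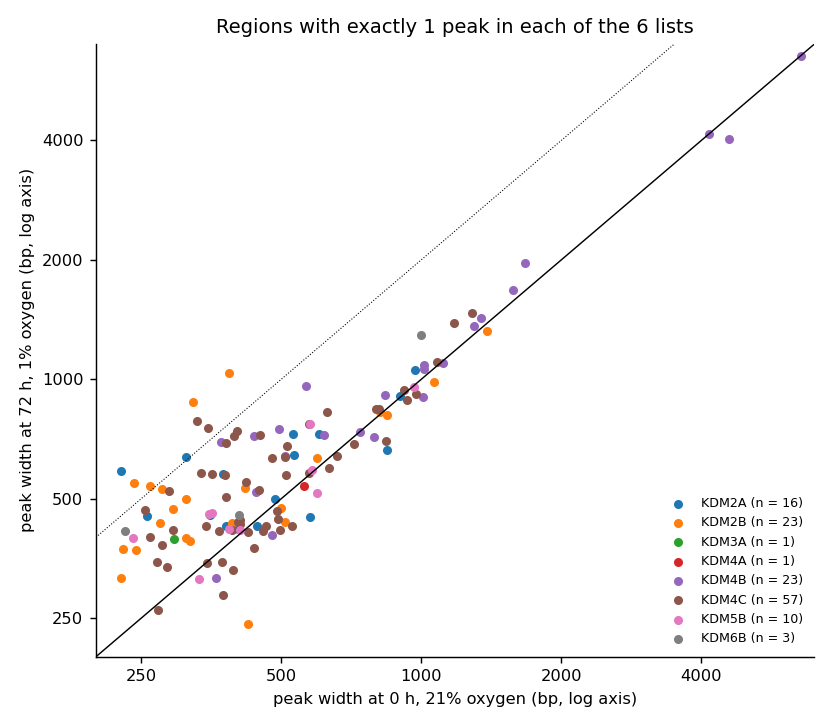
Width of the peak at 72 h (vertical axis, bp, log scale) against its width at 0 h (horizontal axis, bp, log scale) for the 134 regions with exactly 1 peak in each list, coloured by gene. The solid line marks equal width and the dotted line 2 times the width at 0 h, above which 8 regions lie, 4 of them in KDM2B.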

How the data were processed

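The captured libraries of SK-N-BE(2) cells (SK-N-BE2 in some labels) came from genomic DNA sheared to 300 bp, in which 5-hmC was tagged with an azide-bearing glucose and biotin, captured on streptavidin beads and released, per the labels' protocols. The deposited lists, 1 per time, give a chromosome and 2 positions per peak in 3 columns, and neither height nor q-value. The submitters' processing notes name hg19 as build and MACS2, HTSeq and BWA 0.7.17 as tools, with no account of their use. Not given in the sources used here are the calling threshold, the role of the input and the read depth.

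Groups follow the labelled time and oxygen. Peaks were counted by midpoint in the 8 windows and in 150 kb tiles. Ratios have 0.5 added to both numbers, were left out where both were 3 peaks or fewer, and have 95% exact binomial intervals. Peaks that overlapped by 1 bp or touched were merged into regions. All 8 genes are named, and in each window the widest region in all lists, in the hypoxia lists alone and at 0 h alone, and the constant sites with the largest and smallest change in width; other sites were named after their values were seen. The genes and lists were chosen with earlier results of these data known. Other JmjC genes and genes of similar pattern were not counted, since no annotation in hg19 was used here. Alternatives were wider or merged peaks, equal list lengths, trimmed windows, other tile sizes, another rule of size, 6 h as reference and each list left out. The computations were tested on simulated data. Computations used SciPy 1.17.1 and pandas 2.3.3 under Python 3.11.15, with figures by Matplotlib 3.10.9.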

Additional observations from a re-analysis of the deposited data

How the results depend on the processing

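No paired analysis was possible because each time has 1 library. Of 241 alternative values, 21 moved and 6 that had been called or tested changed direction. Of 179 ratios and rho of single genes, 13 changed direction, called or not. With peaks of at least 500 bp the number ratio at 72 h turned in KDM2A (1.08), KDM2B (1.11), KDM4C (1.07), KDM4A (0.891) and KDM5B (0.729). The covered-length ratio turned in KDM4C (1.14) and KDM5B (0.762), and rho in KDM2B (0.143) and KDM4C (0.543). By number 0 genes were called higher and 1 lower, and by covered length 1 higher (KDM6B) and 1 lower (KDM5B). Of the 180 regions left in the windows 45.0% were in all 6 lists, against 38.6% of all regions with this setting. At 0 h alone were 2, against 1.69% of all regions. The cause of these changes was not tested. The number ratio also turned in KDM6B with trimmed windows (0.934) and in KDM2A without regions in 1 list only (1.1), and rho in KDM2B with covered length (0.029) and in KDM4A without the 72 h list (-0.2, and from -0.2 to 0.5 over all lists left out in turn). With a rule of size of 1.5, 0 genes were called higher. With equal numbers of peaks per list, widest first, the windows held 341 regions. Of these, 5 were in all hypoxia lists but not at 0 h (against 2.12% of all regions). At 0 h alone were 14 (against 3.21%) and at 72 h alone 11 (against 4.19%). KDM3A, KDM5B and KDM6B were called higher with this setting. In tiles of 250 kb 6.15% were called lower at 72 h, and in tiles with a mean from 1 to under 10 peaks 56.7% were called higher and 5.47% lower, or 52.8% and 5.25% with a mean from 4 to under 10 and none left out. With 6 h as reference KDM3A, KDM4A and KDM6B were called higher. With each list left out in turn 0 genes passed the adjusted threshold, which says nothing on stability: with 5 lists the smallest p of rho is 0.0167, and 3729 of the same windows would have to reach it. Counts of 2 to 13 peaks in KDM3A, KDM4A and KDM6B set wide intervals, and depth is unknown.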
